A study of Mus musculus with 9 samples.

Results

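The genes described here are 37 targets of the transcription factor p53, a set given by name and grouped here by function. They comprise 6 genes of cell cycle arrest, 5 of feedback on p53, 12 of apoptosis, 5 of DNA repair, 7 of metabolism and redox defence and 2 cell surface genes. All 37 were found among the 23366 gene entries counted in each library, and all 37 passed the default filter on low counts in each of the main comparisons. They were well covered, since 35 of them reached a level of 1 TPM (transcript abundance corrected for gene length and library size) in every library, against 44.1% of all gene entries. The exceptions were *Fas* and *Eda2r*, each in IMOK libraries only.

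The p53 protein binds DNA and switches on genes after DNA damage, oncogene activity or other stress, and its amount is set mostly by how fast the protein is destroyed. *Mdm2*, itself a target, marks p53 for destruction, while the *Arf* product of *Cdkn2a* holds Mdm2 back. The targets arrest the cell cycle, repair DNA, adjust metabolism or lead to cell death, and loss of this response is a common route by which cultured rodent cells become immortal.

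RNA had been sequenced from mSGc, a spontaneously immortalized epithelial line from the submandibular salivary gland of adult male C57BL/6 mice, grown as monolayers. The 6 mSGc libraries came from passages P2, P4, P10 and P25 in a medium that the labels call progenitor, and from P10 and P25 in a medium they call differentiating, with 1 library per condition. The 3 further libraries, numbered as replicates 1 to 3, came from IMOK, immortalized mouse oral keratinocytes grown in a medium of their own. The progenitor medium was taken as the study's serum-free medium, which contains dexamethasone, and the differentiating medium as its serum-containing medium with retinoic acid, hydrocortisone and triiodothyronine. The labels do not state that match. The labels do not say how IMOK was immortalized, and the mSGc are a single line in which the study reported chromosome abnormalities at early passage. Line, medium and experiment change together between mSGc and IMOK and cannot be told apart in any comparison of the lines. The lines also differed in chromosome Y expression, where the 5 genes tested had a median log2 fold change of 11.9, higher in mSGc. The study states that IMOK was analysed at the same passage number as the P10 mSGc, so passage differs too wherever other mSGc libraries are used. The fits between the lines had no term for medium or passage. Their p-values measure the spread between libraries within each line, which in mSGc includes differences of passage and medium. The 6 mSGc libraries come from 1 line and are not independent replicates. The labels do not say whether the 3 IMOK libraries were separate cultures, so the spread between them may be technical.

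Total counts ran from 6237884 to 18444963 per library, and 3 counts, the limit that a count of 0 allows for counting error, corresponded to 0.163 to 0.481 CPM (counts scaled to library size). IMOK replicate 1 stood apart, with a chi-square value per degree of freedom of 150 and 180 against replicates 2 and 3, which differed from each other by 21.3. Markers of basal epithelium, such as the keratins *Krt5* and *Krt14*, summed to between 14027 and 26883 TPM in mSGc and between 11611 and 13034 TPM in IMOK, while immune markers summed to at most 4.10 TPM and endothelial markers to at most 0.945 TPM in mSGc. The acinar markers summed to between 3.04 and 71.0 TPM in mSGc and between 129 and 213 TPM in IMOK. Few of them were expressed, since 1 of the 6 reached 1 TPM in every mSGc library and 1 in every IMOK library. Only 3 of the 6 passed the filter on low counts between the lines.

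The first comparison asked how p53 target expression in the salivary gland line differed from that of another oral epithelial line. Of the 37 targets, 23 were higher in mSGc and 0 were lower, where 6.58% of all 12885 genes tested were higher and 8.3% were lower (quasi-likelihood test of edgeR, Benjamini-Hochberg adjusted p under 0.05, 6 against 3 libraries). All later adjusted p-values come from this test unless another is named. The median log2 fold change of the 37 targets was 1.33 and that of all genes tested was 0.0023, and 35 of the 37 estimates were positive. For 24 of the targets every mSGc library lay above every IMOK library in CPM scaled with TMM factors, which was so for 9.7% of all genes, and for 0 of them was the order the opposite. In TPM the count was 23 of 37 against 5.22% of genes. The study's own list of genes enriched in mSGc holds 14 of the targets. It came from P10 mSGc against IMOK together with NIH3T3 fibroblasts and A20 B lymphocytes, whose data are not among these libraries. All 14 were higher here, which is not independent evidence, since the P10 and IMOK libraries are shared. Of the other 23 targets, 9 were higher, with a median log2 fold change of 1.09 over the 23. All 37 targets were chosen with earlier results of these data known, so these 23 are not independent evidence either.

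**Figure D1:**
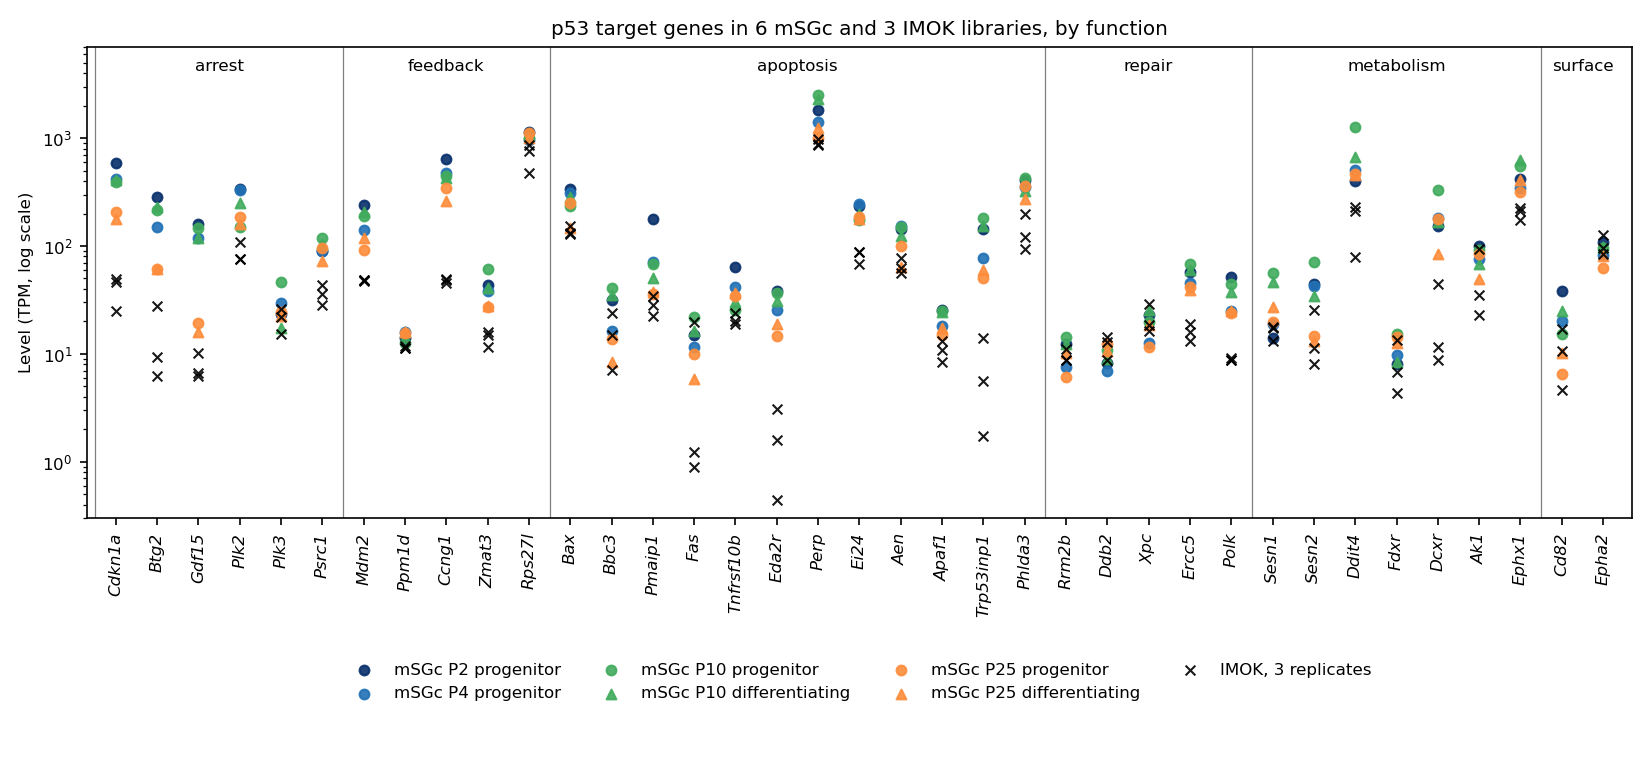
Level of each p53 target gene in every library, in TPM on a log scale, with genes grouped by function, circles for progenitor medium, triangles for differentiating medium, colours for passage and crosses for the 3 IMOK replicates. The mSGc symbols of genes such as *Cdkn1a*, *Ccng1*, *Eda2r* and *Polk* lie clear of the IMOK crosses, whereas those of *Rrm2b*, *Ddb2*, *Xpc* and *Epha2* lie among them.

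**Figure D2:**
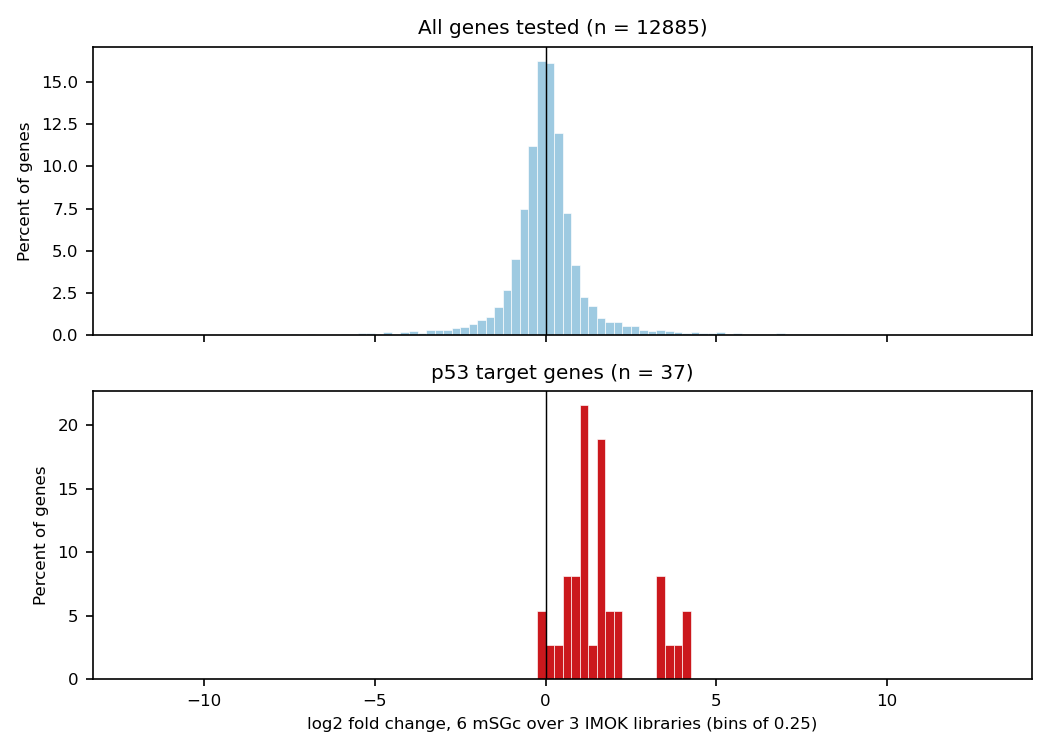
Distribution of the log2 fold change between 6 mSGc and 3 IMOK libraries in bins of 0.25, as percent of genes, for all 12885 genes tested (upper panel) and for the 37 p53 targets (lower panel). All genes centre on a median of 0.0023, and the targets on 1.33.

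The DNA around the start sites of the targets was searched for the p53 consensus, a pair of adjoining 10-base units, in the mm9 genome on both strands. The search took 3000 bases on each side of the outermost start of each gene, allowed 1 base between the units and 1 mismatch over both units outside their central C and G, and its settings were chosen after the expression data had been seen. It found 8 matches at 7 of the 37 targets (18.9%), against 394 of 12878 genes scanned (3.1%). A match is only a run of letters and not a bound site, and a gene without one here may carry a site elsewhere. The matches are shown as the stretches within the searched windows that met these settings. They are written 5′ to 3′ on the strand of the gene, and capitals mark the central 4 bases of each unit.
*Ccng1* (mm9 chr11:40568438-40568457, minus strand, 340 bases after the start, in an intron): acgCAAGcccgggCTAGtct
*Ccng1* (mm9 chr11:40568964-40568983, minus strand, 186 bases before the start, upstream): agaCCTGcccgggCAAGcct
*Cdkn1a* (mm9 chr17:29227873-29227892, plus strand, 48 bases before the start, upstream): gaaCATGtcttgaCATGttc
*Gdf15* (mm9 chr8:73155865-73155884, minus strand, 340 bases before the start, upstream): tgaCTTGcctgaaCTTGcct
*Psrc1* (mm9 chr3:108187574-108187593, plus strand, 862 bases after the start, in an intron): gggCATGttgaggCATGccc
*Rps27l* (mm9 chr9:66794103-66794122, plus strand, 188 bases after the start, in an intron): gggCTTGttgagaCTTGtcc
*Trp53inp1* (mm9 chr4:11082259-11082279, plus strand, 1319 bases before the start, upstream): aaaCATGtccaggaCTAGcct
*Zmat3* (mm9 chr3:32263253-32263272, minus strand, 1324 bases after the start, in an intron): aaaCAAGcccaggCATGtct
The matches at *Zmat3* and *Trp53inp1* had 0 mismatches and the other 6 had 1. The *Cdkn1a* match lay in front of the counted gene model, with its centre 48 bases from the outermost start. Which start these cells use was not tested. The *Ccng1* gene held a match on either side of its start, with distances taken to the centre of a match. The 7 targets with a match were all among the 23 of 37 targets that were higher in mSGc. Of all 394 genes with a match, these 7 included, 39 (9.9%) were higher, against 6.58% of the genes scanned. Whether a match goes with a higher level was not tested.

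Among the 6 arrest genes, 5 were higher in mSGc, with a median log2 fold change of 2.51 over the group. In the following, paired values at P10 and P25 are for progenitor and then differentiating medium. *Cdkn1a*, which encodes the cyclin-dependent kinase inhibitor p21, had 592 and 415 TPM at P2 and P4, 389 and 409 at P10, 207 and 177 at P25, and 49.1, 46.8 and 25.1 in the IMOK replicates. Its lowest mSGc value was more than 3 times its highest IMOK value. The log2 fold change was 3.39 ± 0.41 (SE, adjusted p = 0.000915). *Btg2*, an antiproliferative gene, was measured at 282 TPM at P2, 150.2 at P4, 214 and 230.1 at P10 and 61.5 and 60.8 at P25, against 27.9, 9.44 and 6.27 TPM in IMOK, and *Gdf15*, a secreted stress cytokine, stood at 160.2 TPM at P2 and 118 at P4, at 147 and 118 at P10, at 19.2 and 15.9 at P25, and at 6.60, 10.2 and 6.21 in IMOK. In both genes the groups did not overlap, but the P25 libraries were much nearer to IMOK than the earlier ones. Their log2 fold changes were 3.75 ± 0.65 (SE, adjusted p = 0.00514) for *Btg2* and 3.82 ± 0.80 (SE, adjusted p = 0.0123) for *Gdf15*. *Gdf15* lies on chromosome 8, where the median log2 fold change of all 709 genes tested was 0.351, and the part of this in its value was not tested. Other targets also lie on chromosomes with a shifted median. It was 0.361 on chromosome 14 (*Tnfrsf10b*), 0.312 on chromosome 4 (*Plk3*, *Trp53inp1*, *Sesn2* and *Epha2*) and 0.213 on chromosome 13 (*Plk2* and *Polk*). It was -0.551 on chromosome 19 (*Fas*) and -0.171 on chromosome 2 (*Ddb2*, *Ak1* and *Cd82*). The part of these shifts in the values of those targets was not tested either.

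*Plk2*, a kinase induced by stress, had 338 and 328 TPM at P2 and P4, 149 and 252 at P10, 185 and 161 at P25, and 75.6, 76.4 and 109 in the IMOK replicates. *Psrc1*, which encodes a spindle protein, was measured at 89.1 TPM at P2, 89.01 at P4, 119.6 and 105 at P10 and 95.9 and 72.2 at P25, against 36.1, 43.4 and 28.4 TPM in IMOK. In both, the lowest mSGc library stayed above the highest IMOK library, and the log2 fold changes were 1.64 ± 0.32 (SE, adjusted p = 0.00968) for *Plk2* and 1.63 ± 0.21 (SE, adjusted p = 0.00129) for *Psrc1*. *Plk3* was the arrest gene that did not pass the test, with 17.4 to 46.3 TPM in mSGc (median 23.8) and 15.4, 22.1 and 25.8 TPM in IMOK and a log2 fold change of 0.58 ± 0.34 (SE, adjusted p = 0.286). Its exons share 76 bases with *Tctex1d4*, so some of its reads may belong to that gene.

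Of the 5 feedback genes, 4 were higher, and in all 5 the groups did not overlap on the TMM-scaled or the TPM scale. *Mdm2*, the ubiquitin ligase that removes p53, stood at 242 TPM at P2 and 140.0 at P4, at 191 and 205 at P10, at 92.6 and 119 at P25, and at 47.4, 48.01 and 48.7 in IMOK. The 3 IMOK values were nearly equal and lay below the lowest mSGc value. The log2 fold change was 1.97 ± 0.26 (SE, adjusted p = 0.00157). *Ccng1*, whose product cyclin G1 acts with Mdm2, had 635 and 473 TPM at P2 and P4, 442 and 428 at P10, 346 and 261 at P25, and 45.4, 49.4 and 48.01 in the IMOK replicates. It had the smallest adjusted p of the 37 targets, with a log2 fold change of 3.38 ± 0.29 (SE, adjusted p = 0.000109). *Zmat3*, an RNA-binding zinc finger gene, was measured at 43.1 TPM at P2, 38.1 at P4, 61.1 and 40.6 at P10 and 27.2 and 27.8 at P25, against 11.5, 15.8 and 14.96 TPM in IMOK, and its log2 fold change was 1.69 ± 0.27 (SE, adjusted p = 0.00358). Its exons share 162 bases with *4930429B21Rik*.

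*Rps27l*, a ribosomal protein gene that also modulates Mdm2, was among the most abundant targets, with 969 to 1129 TPM in mSGc (median 1057) and 476, 752 and 863 TPM in IMOK. Its log2 fold change was 0.80 ± 0.23 (SE, adjusted p = 0.0422), and it kept an adjusted p under 0.05 in 5 of the 15 alternative fits. Reads of the closely related gene *Rps27* and its copies could be shared with it, and the treatment of such reads is not given in the sources used here. *Ppm1d*, the phosphatase that ends the damage signal, had 12.5 to 16.1 TPM in mSGc (median 15.7) and 11.4, 11.4 and 11.9 TPM in IMOK, and its log2 fold change of 0.59 ± 0.20 (SE, adjusted p = 0.0712) did not pass the test although the groups did not overlap.

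Among the 12 apoptosis genes 9 were higher, with a median log2 fold change of 1.17. The largest differences were those of *Eda2r*, a receptor of the tumour necrosis factor family, and *Trp53inp1*, a cofactor of p53 in cell death and autophagy. *Eda2r* stood at 38.4 TPM at P2 and 25.2 at P4, at 37.00 and 30.9 at P10, at 14.7 and 18.8 at P25, and at 0.444, 3.05 and 1.59 in IMOK. *Trp53inp1* had 144 and 77.1 TPM at P2 and P4, 182 and 154 at P10, 50.98 and 59.8 at P25, and 14.1, 5.62 and 1.72 in the IMOK replicates. Both were low in IMOK and spread widely between its replicates, with log2 fold changes of 4.18 ± 0.60 (SE, adjusted p = 0.00208) for *Eda2r* and 4.20 ± 0.68 (SE, adjusted p = 0.00364) for *Trp53inp1*.

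*Phlda3*, an inhibitor of Akt, was measured at 408 TPM at P2, 350.3 at P4, 429.9 and 321 at P10 and 360.2 and 270.3 at P25, against 198, 119.9 and 93.5 TPM in IMOK. *Ei24*, a membrane protein gene of the endoplasmic reticulum, stood at 233 TPM at P2 and 246 at P4, at 175 and 196 at P10, at 185 and 178 at P25, and at 67.7, 87.9 and 88.6 in IMOK. The groups did not overlap in either gene, and the log2 fold changes were 1.63 ± 0.25 (SE, adjusted p = 0.00271) for *Phlda3* and 1.52 ± 0.21 (SE, adjusted p = 0.00176) for *Ei24*. *Apaf1*, the scaffold of the apoptosome, had 25.4 and 18.2 TPM at P2 and P4, 25.1 and 24.5 at P10, 15.1 and 17.3 at P25, and 8.38, 13.2 and 10.8 in the IMOK replicates, and its log2 fold change was 1.15 ± 0.22 (SE, adjusted p = 0.00769). *Bax*, which permeabilizes mitochondria, was measured at 341 TPM at P2, 310.1 at P4, 237 and 284 at P10 and 249 and 148 at P25, against 152, 131 and 128 TPM in IMOK. The P25 library in differentiating medium was the one that fell within the IMOK range of *Bax* in TPM. The log2 fold change of *Bax* was 1.15 ± 0.24 (SE, adjusted p = 0.0120).

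*Perp*, which encodes a desmosomal protein and is also a target of p63, had the highest mean level of the 37 targets and stood at 1818 TPM at P2 and 1419 at P4, at 2487 and 2310.4 at P10, at 1008 and 1235 at P25, and at 887, 983 and 856 in IMOK. Its lowest mSGc value lay just above its highest IMOK value, and the log2 fold change was 1.11 ± 0.27 (SE, adjusted p = 0.0240). The nuclease gene *Aen* had 64.3 to 152 TPM in mSGc (median 134) and 61.9, 55.7 and 77.1 TPM in IMOK and a log2 fold change of 1.13 ± 0.28 (SE, adjusted p = 0.0249). The death receptor gene *Tnfrsf10b* had 25.7 to 63.7 TPM in mSGc (median 35.6) and 18.97, 19.96 and 24.1 TPM in IMOK and a log2 fold change of 1.09 ± 0.28 (SE, adjusted p = 0.0296).

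The 3 apoptosis genes that did not pass were *Bbc3*, *Pmaip1* and *Fas*. *Bbc3* (Puma) had 8.38 to 40.4 TPM in mSGc (median 23.9) and 23.8, 14.97 and 7.13 TPM in IMOK, and its log2 fold change was 0.89 ± 0.49 (SE, adjusted p = 0.254). *Pmaip1* (Noxa) had 35.6 to 179 TPM in mSGc (median 59.3) and 22.2, 28.2 and 34.3 TPM in IMOK, and its log2 fold change was 1.55 ± 0.49 (SE, adjusted p = 0.0596), although its groups did not overlap. The death receptor gene *Fas* had 5.84 to 21.97 TPM in mSGc (median 13.3) and 19.6, 1.22 and 0.9 TPM in IMOK, so that IMOK replicate 1 was within the mSGc range and the other replicates were far below it. Its log2 fold change was 1.19 ± 0.85 (SE, adjusted p = 0.381) with all 9 libraries, and 3.79 (adjusted p = 0.00388) without IMOK replicate 1.

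The repair genes were split. *Polk*, a translesion DNA polymerase, had 51.1 and 24.7 TPM at P2 and P4, 44.3 and 37.5 at P10, 23.9 and 24.7 at P25, and 8.86, 9.08 and 8.80 in the IMOK replicates, and *Ercc5*, an endonuclease of nucleotide excision repair, was measured at 56.9 TPM at P2, 45.3 at P4, 68.4 and 60.03 at P10 and 41.7 and 38.99 at P25, against 19.02, 16.1 and 13.2 TPM in IMOK. Neither gene overlapped between the lines, and the log2 fold changes were 2.14 ± 0.26 (SE, adjusted p = 0.000978) for *Polk* and 1.91 ± 0.20 (SE, adjusted p = 0.000340) for *Ercc5*. The other 3 genes overlapped between the lines. *Rrm2b*, a subunit of ribonucleotide reductase, had 6.15 to 14.3 TPM in mSGc (median 11.2) and 8.84, 10.98 and 8.74 TPM in IMOK, and its log2 fold change was 0.33 ± 0.25 (SE, adjusted p = 0.410). *Ddb2*, which senses damage from ultraviolet light, had 6.98 to 12.3 TPM in mSGc (median 9.78) and 14.5, 12.9 and 8.86 TPM in IMOK, and its log2 fold change was -0.07 ± 0.29 (SE, adjusted p = 0.895), and its exons share 431 bases with those of *Acp2*. *Xpc*, another damage sensor, had 11.7 to 25.3 TPM in mSGc (median 19.2) and 29.2, 18.6 and 16.2 TPM in IMOK, and its log2 fold change was 0.0047 ± 0.23 (SE, adjusted p = 0.994). The median log2 fold change of the 5 repair genes was 0.33.

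Of the 7 metabolism genes 3 were higher. *Ddit4*, an inhibitor of mTOR complex signalling that glucocorticoids also induce, stood at 399 TPM at P2 and 504 at P4, at 1278 and 673 at P10, at 463 and 459 at P25, and at 228, 209.7 and 79.7 in IMOK. *Dcxr*, a carbonyl reductase gene, had 154 and 183 TPM at P2 and P4, 328 and 168 at P10, 178 and 84.3 at P25, and 44.9, 11.6 and 8.83 in the IMOK replicates. The groups did not overlap in either gene, and the P10 library in progenitor medium was the highest in both. The log2 fold changes were 2.11 ± 0.46 (SE, adjusted p = 0.0145) for *Ddit4* and 3.35 ± 0.59 (SE, adjusted p = 0.00567) for *Dcxr*. *Ephx1*, which detoxifies epoxides, was measured at 415 TPM at P2, 348 at P4, 551 and 629.9 at P10 and 314 and 409.7 at P25, against 212, 225 and 173 TPM in IMOK, and its log2 fold change was 1.33 ± 0.21 (SE, adjusted p = 0.00332).

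The sestrin genes *Sesn1* and *Sesn2*, which restrain mTOR and oxidative stress, overlapped between the lines. *Sesn1* had 14.03 to 56.5 TPM in mSGc (median 23.4) and 17.7, 17.4 and 13.04 TPM in IMOK, and its log2 fold change was 1.13 ± 0.42 (SE, adjusted p = 0.0953). *Sesn2* had 13.2 to 71.2 TPM in mSGc (median 38.5) and 25.3, 11.3 and 7.99 TPM in IMOK, and its log2 fold change was 1.55 ± 0.55 (SE, adjusted p = 0.0840). The ferredoxin reductase gene *Fdxr* had 7.9996 to 15.1 TPM in mSGc (median 11.2) and 13.5, 6.84 and 4.35 TPM in IMOK, and its log2 fold change was 0.75 ± 0.40 (SE, adjusted p = 0.242). The adenylate kinase gene *Ak1* had 49.4 to 99.5 TPM in mSGc (median 80.3) and 93.7, 34.8 and 22.7 TPM in IMOK, and its log2 fold change was 0.91 ± 0.39 (SE, adjusted p = 0.142), and without IMOK replicate 1 its log2 fold change was 1.61 (adjusted p = 0.0117). Neither surface gene passed the test. *Cd82*, a tetraspanin gene, had 6.46 to 37.9 TPM in mSGc (median 17.7) and 17.1, 10.6 and 4.62 TPM in IMOK, and its log2 fold change was 1.04 ± 0.52 (SE, adjusted p = 0.206). *Epha2*, an ephrin receptor gene, had 62.8 to 109 TPM in mSGc (median 89.5) and 95.5, 83.6 and 127 TPM in IMOK, and its log2 fold change was -0.01 ± 0.19 (SE, adjusted p = 0.972).

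**Figure D3:**
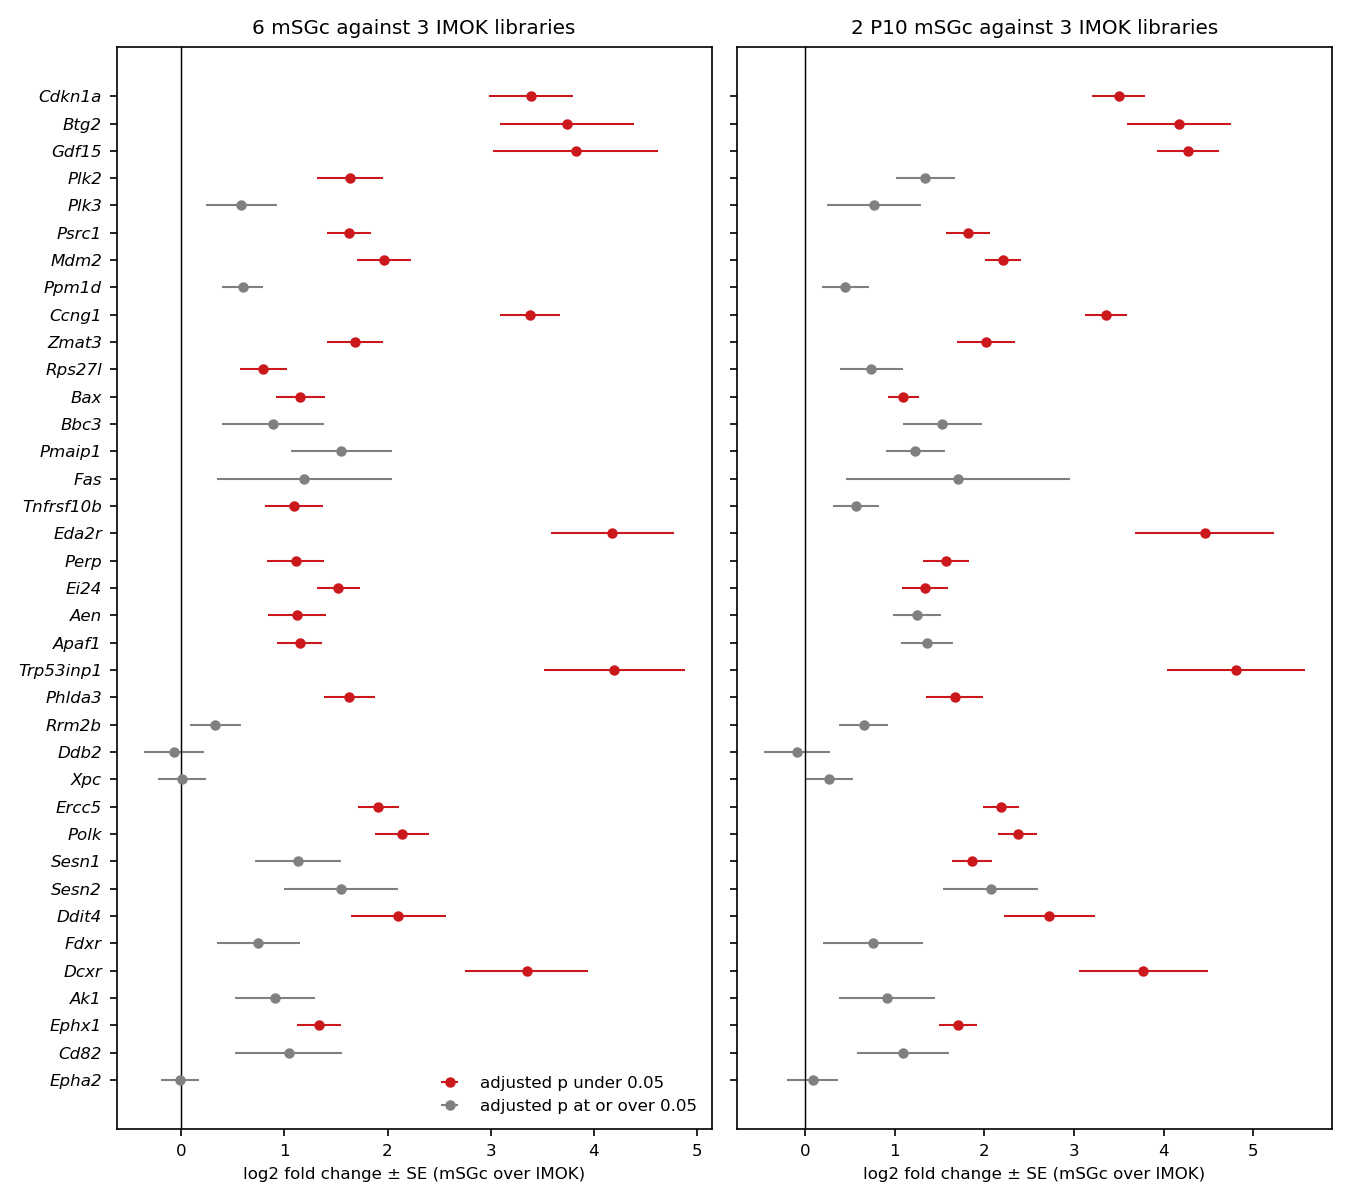
Log2 fold change with its standard error for each of the 37 targets, for 6 mSGc against 3 IMOK libraries (left) and for the 2 P10 mSGc libraries against the same IMOK libraries (right), red where the adjusted p was under 0.05. In the left panel 23 genes are red and in the right panel 19, all of them above 0.

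The study compared the lines at P10, so the 2 P10 libraries were also set against IMOK alone. This comparison shares its IMOK libraries, and its P10 libraries, with the one above. At P10, 19 targets were higher and 0 were lower. Of 13018 genes tested, 2.34% were higher and 1.87% were lower. The median log2 fold change of the 37 targets was 1.57. *Sesn1* was higher at P10, with a log2 fold change of 1.86 ± 0.23 (SE, adjusted p = 0.0218), and was the only one of the 19 that was not also among the 23. *Sesn1*, *Mdm2*, *Perp*, *Apaf1* and *Ddit4* lie on chromosome 10. There the median log2 fold change of all genes tested was 0.354 at P10 and 0.133 with all 6 mSGc libraries. The part of this in the P10 values of these targets, and in their changes from P10 to P25, was not tested. *Cdkn1a* had a log2 fold change of 3.50 ± 0.30 (SE, adjusted p = 0.0106) at P10, *Mdm2* of 2.21 ± 0.20 (SE, adjusted p = 0.0110) and *Ccng1* of 3.36 ± 0.23 (SE, adjusted p = 0.00814). The count followed the number of calls over all genes when a library was left out. Without either P10 library it was 0, and 0% of genes were higher. Without IMOK replicate 2 it was 2, against 0.157% of genes, without replicate 3 it was 4, against 0.281%, and without replicate 1 it was 27, against 14% of genes. Over the 6 mSGc libraries, the count of 23 became 21, 17 and 19 when IMOK replicates 1, 2 and 3 were left out in turn, against 7.18%, 2.11% and 2.47% of genes that were higher.

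IMOK replicate 1 was also set against the other replicates. Its scaled level was the highest of the 3 in 14 targets, against 47.3% of genes, and the lowest in 16, against 41.1%. In 6 targets, *Btg2*, *Fas*, *Trp53inp1*, *Sesn2*, *Dcxr* and *Ak1*, it was at least 2 times that of both others, a share near that of all genes, 1678 of 12885. Replicate 1 also held the largest sums of immune markers, 34.0 TPM against 8.83 and 4.86 TPM in replicates 2 and 3, of myoepithelial markers, 961 TPM against 10.2 and 15.4 TPM, and of mesenchymal markers, 898 TPM against 149 and 246 TPM, and their part in its p53 target levels was not tested.

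The genes that act on p53 were examined next. *Trp53*, which encodes p53, stood at 189 TPM at P2 and 157 at P4, at 113 and 114 at P10, at 184 and 182 at P25, and at 144, 147 and 176 in IMOK, and its log2 fold change was 0.23 ± 0.25 (SE, adjusted p = 0.583). Its lowest levels were the 2 at P10. *Cdkn2a*, whose reads do not separate its *Ink4a* and *Arf* products, had 89.98 and 75.2 TPM at P2 and P4, 54.2 and 35.2 at P10, 18.2 and 14.9 at P25, and 423, 204 and 179.8 in the IMOK replicates. It was lower in every mSGc library than in any IMOK library, with a log2 fold change of -2.25 ± 0.50 (SE, adjusted p = 0.0160). *Mdm4*, a partner of Mdm2 that restrains p53, was measured at 32.5 TPM at P2, 23.5 at P4, 49.6 and 51.4 at P10 and 21.8 and 38.2 at P25, against 44.7, 36.6 and 31.2 TPM in IMOK, and its log2 fold change was 0.15 ± 0.25 (SE, adjusted p = 0.728). The related factor *Trp63* stood at 27.6 TPM at P2 and 44.1 at P4, at 94.6 and 66.6 at P10, at 71.3 and 93.8 at P25, and at 149, 101 and 72.4 in IMOK, and its log2 fold change was -0.44 ± 0.38 (SE, adjusted p = 0.473). *Trp73* had 2.09 and 3.39 TPM at P2 and P4, 2.78 and 5.79 at P10, 1.35 and 0 at P25, and 3.81, 2.24 and 1.29 in the IMOK replicates, and its log2 fold change was 0.29 ± 0.91 (SE, adjusted p = 0.865). The ranges of these last 3 genes overlapped between the lines.

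**Figure D4:**
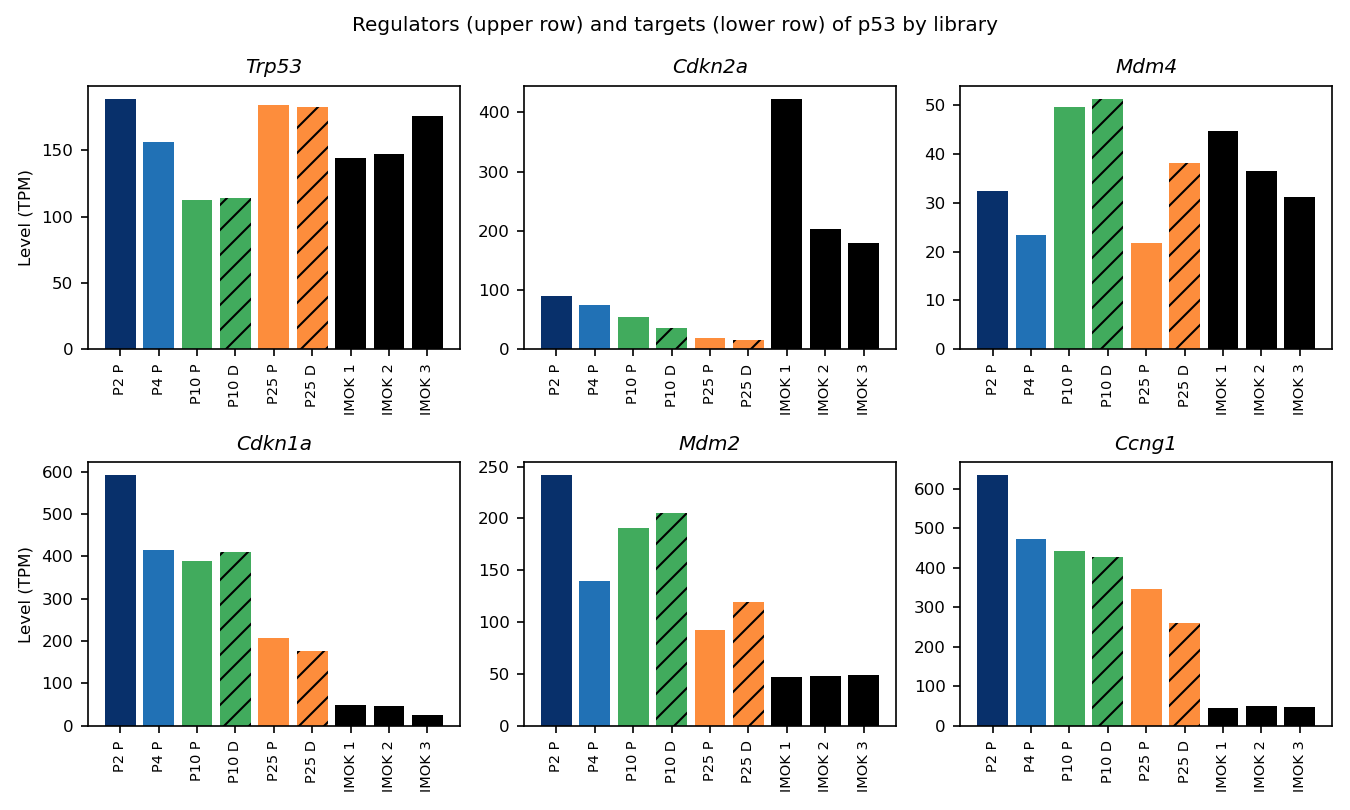
Level in TPM of the regulators *Trp53*, *Cdkn2a* and *Mdm4* (upper row) and of the targets *Cdkn1a*, *Mdm2* and *Ccng1* (lower row) in each library, with P for progenitor medium and hatched bars and D for differentiating medium. The targets are higher in all 6 mSGc libraries than in IMOK, *Cdkn2a* is lower in all 6, and *Trp53* and *Mdm4* overlap.

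Of 14 genes that act upstream on p53, 0 were higher and 2 were lower in mSGc, namely *Cdkn2a* and *Trp53bp1*, a DNA break sensor with a log2 fold change of -0.63 ± 0.15 (SE, adjusted p = 0.0205). The median log2 fold change of the 14 was -0.17. Among 11 tested genes of a second list of p53 targets, 1 was higher and 2 were lower, with a median log2 fold change of 0.25. *Zfp365* was higher with 17.8 to 51.7 TPM in mSGc (median 26.6) and 14.5, 16.4 and 14.3 TPM in IMOK and a log2 fold change of 1.12 ± 0.31 (SE, adjusted p = 0.0392). *Steap3*, a metalloreductase gene, was lower with 0.902 to 4.16 TPM in mSGc (median 2.85) and 9.68, 9.35 and 7.26 TPM in IMOK and a log2 fold change of -1.54 ± 0.43 (SE, adjusted p = 0.0399). *Cyfip2* was lower as well, at 0 to 6 counts in the mSGc libraries and 21 to 86 in IMOK, with an adjusted p of 0.0217. The difference between this list and the 37 targets was not tested.

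Gene groups that could accompany p53 activity were read beside these values. Of 16 proliferation genes, such as *Mki67* and *Top2a*, 0 passed the test between the lines, and their median log2 fold change was -0.25. Their summed level was 1069 TPM in IMOK replicate 1, 2708 and 2797 TPM in replicates 2 and 3, and 815 to 2985 TPM in mSGc. Of 9 glucocorticoid-responsive genes, 4 were higher in mSGc, namely *Per1*, *Sgk1*, *Mt1* and *Mt2*, and their summed level was 3530 to 11624 TPM in mSGc and 701 to 1304 TPM in IMOK. The mSGc media contained a glucocorticoid, and the part of it in the levels of *Ddit4* and other targets was not tested. Of 14 immediate early genes, which handling of cells can raise, *Ier3* was higher and *Klf2* was lower, and the sums overlapped, with 884 to 1363 TPM in mSGc and 642 to 1030 TPM in IMOK.

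Within mSGc, the design allowed the targets to be followed over passage. In a joint fit of medium and the log2 passage number over the 6 libraries, 0 of the 37 targets passed an adjusted p under 0.05, where 0.442% of all 12451 genes fell. An unadjusted p under 0.05 was reached by 7 targets, against 13.2% of genes in either direction. The estimate was negative for 27 of the 37 targets, with a median of -0.12 on the log2 scale per doubling of the passage number, against 0.0032 over all genes. With DESeq2 4 targets fell, namely *Cd82*, *Cdkn1a*, *Gdf15* and *Pmaip1*, against 4.65% of genes, and with limma's voom 0. *Cdkn1a* had an estimate of -0.37 ± 0.10 (SE, adjusted p = 0.185), *Cd82* of -0.63 ± 0.10 (adjusted p = 0.0599), *Pmaip1* of -0.49 ± 0.10 (adjusted p = 0.0950) and *Gdf15* of -0.78 ± 0.31 (adjusted p = 0.346). The P2 library was the highest of the 6 for 10 of the targets on the TMM-scaled scale, against 17.7% of genes, and for 16 in TPM, against 23.2%. It also had the largest sums of luminal markers, 13036 TPM against 1786 to 10561 TPM in the other mSGc libraries, of mesenchymal markers, 1624 TPM against 270.1 to 667 TPM, and of myoepithelial markers, 769 TPM against 7.97 to 125 TPM. All 4 luminal markers had a negative passage estimate with an unadjusted p under 0.05, with a median of -0.94, and 0 of them passed the adjusted threshold. Their part in the passage estimates was not tested.

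P10 and P25 were the passages sampled in both media. On the TMM-scaled log2 scale, 27 of the 37 targets were lower at P25 than at P10 in both media and 6 were higher in both, against 34.9% and 35.9% of all genes. The median change of the 37 was -0.67 in progenitor medium and -0.43 in differentiating medium, while that of all genes was 0 and 0.011. The 6 that were higher at P25 were *Ppm1d*, *Rps27l*, *Tnfrsf10b*, *Ei24*, *Ddb2* and *Fdxr*. On the TPM scale the counts were 28 lower, against 47.5% of genes, and 3 higher, against 24.5%, and the median gene itself shifted by -0.177 and -0.154. For 16 of the targets both P25 libraries lay below the other 4 mSGc libraries, against 13.8% of all genes, and for 0 they lay above, against 15.7%.

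**Figure D5:**
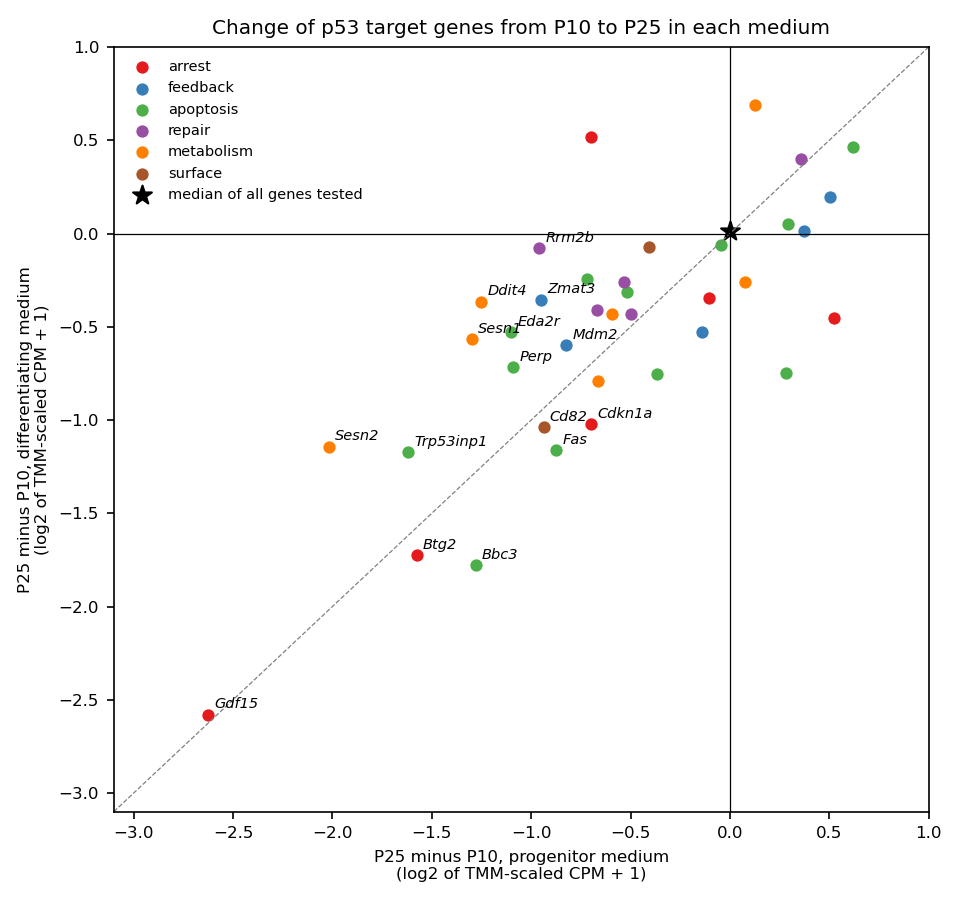
Change of each p53 target from P10 to P25 in progenitor medium (horizontal axis) and in differentiating medium (vertical axis), as a difference of log2(TMM-scaled CPM + 1), coloured by function, with a star for the median of all genes tested and a dashed line of equal change. Most targets lie to the lower left, with *Gdf15*, *Btg2*, *Bbc3*, *Sesn2* and *Trp53inp1* lowest.

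A fit of the 4 libraries of P10 and P25 alone, with medium as a term, had 1 residual degree of freedom. It called 5 targets as falling and 0 as rising, against 4.44% of 11938 genes that fell and 3.2% that rose. In it 20 targets had an unadjusted p under 0.05, against 27.1% of genes in either direction. *Gdf15* went from 147 and 118 TPM at P10 to 19.2 and 15.9 TPM at P25, a change of -2.07 ± 0.18 (SE) per doubling of the passage number (adjusted p = 0.00482). *Btg2* went from 214 and 230.1 TPM to 61.5 and 60.8 TPM (-1.27 ± 0.16, adjusted p = 0.0132). *Trp53inp1* went from 182 and 154 TPM to 51.0 and 59.8 TPM (-1.08 ± 0.18, adjusted p = 0.0208). In all 3 both P25 libraries lay below the other 4 mSGc libraries.

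*Sesn2* went from 71.2 and 34.1 TPM at P10 to 14.7 and 13.2 TPM at P25 (-1.26 ± 0.21, adjusted p = 0.0219), and *Bbc3* from 40.4 and 35.4 TPM to 13.9 and 8.38 TPM (-1.22 ± 0.21, adjusted p = 0.0231). Both lay within the IMOK range at P25, as *Bbc3* already had at P4 with 16.1 TPM, and neither had passed the test between the lines. *Cdkn1a* (-0.67 ± 0.17, adjusted p = 0.0632) and *Mdm2* (-0.56 ± 0.16, adjusted p = 0.0844) missed the threshold. *Plk2* had an estimate of 0.01 ± 0.22 (adjusted p = 0.988). With 1 library per passage and medium, passage cannot be told apart from the culture it was sampled in. The summed level of the proliferation genes was 815 and 1403 TPM at P10 and 2512 and 2985 TPM at P25, and their part in the lower targets was not tested. *Trp53* had 113 and 114 TPM at P10 and 184 and 182 TPM at P25, and *Cdkn2a* 54.2 and 35.2 TPM at P10 and 18.2 and 14.9 TPM at P25, and neither was called in the joint fit.

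The P25 libraries were also compared with IMOK on their own, a comparison added after the passage values had been seen. At P25, 13 targets were higher and 0 were lower, against 3.1% of 12776 genes that were higher and 3.89% that were lower. The median log2 fold change of the targets was 1.09. *Cdkn1a* had a log2 fold change of 2.63 (adjusted p = 0.0118), *Ccng1* of 3.03 (adjusted p = 0.00669), *Mdm2* of 1.47 (adjusted p = 0.0174) and *Polk* of 1.79 (adjusted p = 0.0119). *Gdf15* did not pass at P25 (1.55, adjusted p = 0.0880), and *Bbc3* stood at -0.04 (adjusted p = 0.978). The same IMOK libraries served in this comparison and in that of P10.

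No target passed the test for medium. In the joint fit 0 of the 37 were called, against 0.0241% of genes, and 0 were called by DESeq2 or voom. An unadjusted p under 0.05 was reached by 3 targets, a share like that of all genes (8.18%). The median log2 difference between differentiating and progenitor medium was -0.17. *Dcxr* had differences of -1.12 at P10 and -1.24 at P25 on the TMM-scaled log2 scale, and an adjusted p of 0.621. Luminal keratins and their partners summed to 1800.1 and 1786 TPM in progenitor medium at P10 and P25, and to 10561 and 6579 TPM in differentiating medium, and their part in these values was not tested. A term for a passage slope that differs between the media gave 0 calls among the targets and among all 13158 genes (0%) with edgeR, where 0 targets and 402 genes had an unadjusted p under 0.05, and 0 targets with DESeq2 or voom, but this fit had 2 residual degrees of freedom.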

How the data were processed

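The RNA-seq libraries analysed were 6 of mSGc and 3 of IMOK. Per the labels and the study's methods, the authors aligned reads to mm9 with TopHat2 2.1.1 and Bowtie2 2.2.6, and counted reads per gene with featureCounts 1.5.1. The deposited values are raw counts without normalization. The annotation, strand and treatment of multi-mapping reads are not given in the sources used here, so overlapping and near-identical genes are uncertain. Of the authors' comparisons, the names on their list of genes enriched in mSGc were used to mark which targets it holds, and no values were used.

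Gene lengths in the deposited tables were used to turn counts into TPM. Counts were tested with edgeR 4.0.16 in R 4.3.3 (quasi-likelihood test, TMM factors, filterByExpr, Benjamini-Hochberg adjustment, threshold 0.05), and the size of a log2 fold change over the root of its F statistic gave the standard error. Groups came from the sample titles. Comparisons were mSGc against IMOK (all, or P10 only) and, within mSGc, medium and log2 passage number jointly, and their interaction. The labels give no replicate numbers that pair libraries across groups. The closing section gives the alternatives: DESeq2 1.42.0, limma 3.58.1 (voom), other filters and scaling, subsets of passages and leaving out each library. Scripts were tested on simulated counts, in which the interaction fit missed most changes, even large ones. Library totals of 6237884 to 18444963 counts set the precision. Order of libraries was read on TMM-scaled CPM after TPM had shown a shift of the median gene, and both are given.

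The 37 genes and the lists beside them were chosen with earlier results of these data known. Values in every library are given for the 20 targets with the smallest adjusted p between the lines, and ranges for the others. *Fas*, *Sesn1*, *Sesn2*, *Bbc3*, *Ak1* and other genes outside that rule were singled out after their values were seen.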

Additional observations from a re-analysis of the deposited data

How the results depend on the processing

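Between mSGc and IMOK the number of higher targets stayed within 1.5 times of 23, and that of lower targets at 0, under several alternatives. These were DESeq2, voom, library size without TMM factors, other filters and a fold threshold. Under them 4.24% to 11.6% of all genes were higher and 5.31% to 10.9% were lower, both lowest without a filter and highest with DESeq2. The number of higher targets was 17 to 24 when 1 library was left out, against 2.11% to 7.18% of genes. With the P25 libraries only it was 13, against 3.1% of genes. Without TMM factors the median gene shifted by -0.10. Of the 23 genes, 13 kept an adjusted p under 0.05 in all 15 alternatives and 0 changed direction. For P10 against IMOK the count ran from 0 to 27 when 1 library was left out, 0 of the 19 genes kept the call in all 10 alternatives, and 0 changed direction. For passage, 0 targets became 4 with DESeq2, against 4.65% of genes that fell, and 1 without a filter, against 0.816%. With P10 and P25 only the count was 5, against 4.44%, and the median was -0.41 in place of -0.12. With 1 library left out the count was 0 to 1, and 2.01% of genes fell in the fit with 1 call. For medium the count stayed at 0. For the interaction it was 0 to 1 with 1 library left out, and 1.35% of all genes were called in the fit with 1 call. The fits without a differentiating library could not be fitted. The cause of these differences was not tested. No block by replicate number was fitted, since the mSGc labels give none, and the fit of P10 and P25 compared passages within each medium. In TPM, 16 in place of 10 targets were highest at P2, an alternative chosen after seeing the data. Each target had at least 13 counts in each library, and limits from counting error and from the number of libraries were not compared.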
